A study of Sus scrofa with 30 samples.

Results

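Keratins are the intermediate filament proteins of epithelial cells. The 6 keratin genes KRT7, KRT8, KRT10, KRT18, KRT19 and KRT80 were taken as a list of symbols, mapped to NCBI gene IDs, and all 6 were present among the 13103 genes counted in single pig embryos. The study sequenced mRNA of 30 whole embryos, each with its embryonic disc and its trophectoderm, and compared days of development and the sexes. The embryos were flushed from the uteri of gilts slaughtered on Days 8, 10 and 12 after insemination, with 5 female and 5 male embryos on each day, 10 per day in all. All gilts were German Landrace × Pietrain crosses whose cycles were synchronized with Altrenogest, PMSG and human chorionic gonadotropin, and all were inseminated from 1 boar. The 10 embryos of a day came from at most 4 gilts, with female and male embryos taken from the same gilt, so some embryos were littermates. The labels do not say which gilt carried which embryo, so the tests treat embryos as independent. The p-values of differences set them against the spread between these embryos. With littermates, the p-values of the day comparisons and of the correlations within a day may be too small. Each gilt gave embryos of 1 day only, so differences between days cannot be told apart from differences between gilts.

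Keratin filaments are built from pairs of 1 type I and 1 type II keratin, and neither kind polymerizes well alone. KRT8 with KRT18 is the usual pair of simple epithelia and of the trophectoderm, the outer epithelium of the blastocyst that later forms the placenta. KRT7 and KRT19 are further simple-epithelial keratins, whereas KRT10 is best known from the differentiating layers of the epidermis and KRT80 from epithelia at late stages of differentiation. Filaments are anchored at desmosomes through plakins and plakophilins, so a sheet of keratin-bearing cells forms a continuous mechanical network. Between Days 8 and 12 the pig blastocyst passes from a hatched sphere to a long thin filament.

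The type II genes lie on chromosome 5 of the pig genome Sscrofa11.1, KRT80 at 17482454 to 17506462, KRT7 at 17553192 to 17570582 and KRT8 at 18172423 to 18180277. KRT18 is a type I gene but lies on chromosome 5 too, at 18217686 to 18221432, 37408 bases from KRT8, with 1 annotated non-coding gene between them that is not among the genes counted. The other type I genes lie on chromosome 12, KRT19 at 21115453 to 21119115 and KRT10 at 21641263 to 21645642. The reference annotation lists KRT7 as a long non-coding RNA gene with 1 transcript, and the other 5 genes as protein-coding. The counts are per whole gene, and a level in CPM, a read count scaled to a common library size, is not corrected for transcript length. Levels are therefore compared between embryos and not between genes, and the ratios between 2 keratins given here are ratios of reads, read for their change between days. How reads that match several keratin genes were counted is not given in the sources used here.

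Reads counted in genes ranged from 6068212 to 34002508 per embryo, with the lowest total in d12_f_245 (embryos are named by day, sex and number). The study reports more clean reads than this lowest total for every sample, so the totals are not the sequencing depth. KRT10 and KRT80, at 24 to 196 and 0 to 746 reads per embryo, were the members limited by low counts. Marker genes of the trophectoderm were present in all embryos, with 8 of 8 listed genes counted and a summed level of 1549 to 1949 CPM on Day 8, 2601 to 3227 on Day 10 and 1355 to 2121 on Day 12. Much of that sum came from DAB2, at 842 ± 94.2, 2082 ± 262 and 696 ± 125 CPM. Without DAB2 its median was 997, 854 and 973 CPM on the 3 days. ELF5, another gene of the list, was at 0.258 to 1.22 CPM on Day 8. Of 12 listed markers of the uterine epithelium, the maternal tissue that also bears keratins, 6 were among the genes counted, and on Day 8 their summed level lay between 0.739 and 9.24 CPM, on Day 10 between 1.30 and 25.9, and on Day 12 between 11.2 and 79.5. On Day 12 WFDC2 alone lay between 6.67 and 72.2 CPM. Summed markers of the hypoblast, which is an epithelium as well, had medians of 915, 1146 and 2900 CPM on the 3 days. Much of that sum came from APOA1, at 637 ± 202, 938 ± 212 and 2551 ± 1451 CPM. In RNA from a whole embryo, fewer cells of a type and less RNA per cell cannot be told apart.

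KRT8 supplied the most reads of any gene in 21 of 30 embryos. It ranked first or second in every embryo of Days 8 and 10, and between 1 and 8 on Day 12. KRT18 ranked between 2 and 4 on Day 8, between 2 and 7 on Day 10 and between 5 and 38 on Day 12. KRT19 moved the other way, from ranks 71 to 113 on Day 8 through 17 to 34 on Day 10 to 5 to 19 on Day 12. Together the 6 genes took 2.46% ± 0.157 of all counts on Day 8, 4.16% ± 0.582 on Day 10 and 1.95% ± 0.703 on Day 12 (SD, n = 10 embryos per day).

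Between Day 8 and Day 10, 4 of the 6 keratins rose by the study's thresholds, a log2 fold change beyond 1 at a false discovery rate (FDR) under 0.001. These were KRT7, KRT8, KRT19 and KRT80. No member fell by these thresholds. Of all 13103 genes, 14.1% were called in this comparison, 9.88% higher and 4.20% lower. The median log2 fold change of all genes was 0.03. With libraries scaled by their size alone the median moved to -0.15 and the called genes split into 1027 higher and 811 lower, against 1295 higher and 550 lower with the scaling used here. In 5 of 6 keratins, KRT18 added, every Day 10 embryo lay above every Day 8 embryo, which held for 11.0% of all genes (22.0% in either direction).

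Between Day 10 and Day 12, KRT8 and KRT18 fell and KRT10 rose, 3 called members against 23.3% of all genes called, 14.9% higher and 8.39% lower. In KRT8 and KRT18 every Day 12 embryo lay below every Day 10 embryo, as in 8.20% of all genes, while 8.40% lay wholly above (16.6% in either direction). The median of all genes was 0.04 and moved to 0.24 with library size alone. From Day 8 to Day 12, KRT7 and KRT19 rose and KRT18 fell, 3 called members against 32.5% of all genes, 22.0% higher and 10.4% lower. In KRT19 every Day 12 embryo lay above every Day 8 embryo, as in 15.7% of all genes, and in KRT18 every one lay below, as in 16.0% (31.7% in either direction). The 3 comparisons share embryos, since each day enters 2 of them, and are not independent of each other.

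**Figure D1:**
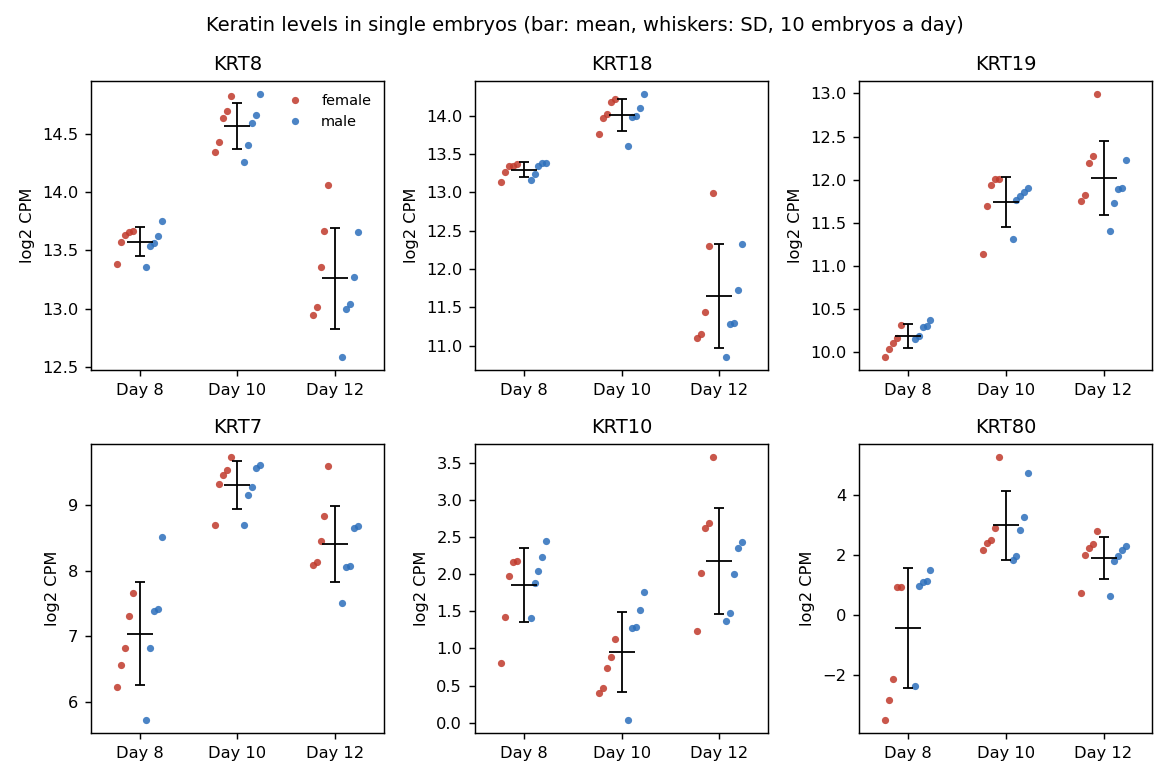
Level of each keratin in single embryos, as log2 CPM with a prior count of 2, on Days 8, 10 and 12. Each point is 1 embryo, red for female and blue for male. The bar is the mean and the whiskers are the SD of 10 embryos, and each panel has its own vertical scale. KRT8 and KRT18 peak on Day 10 and have their lowest mean on Day 12, where KRT8 overlaps Day 8 and KRT18 does not. KRT19 has its highest mean on Day 12, where its embryos overlap those of Day 10.

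Among the type II keratins, KRT8, the partner of KRT18 in simple epithelia, ranged from 10486 to 13759 CPM on Day 8 (median 12406), from 19627 to 29326 on Day 10 (median 25073) and from 6139 to 17097 on Day 12 (median 9154). All Day 10 embryos stood above all embryos of the other days. The Day 8 and Day 12 embryos overlapped, with 7 Day 12 embryos below the Day 8 range and 1, d12_f_271, above it. From Day 8 to Day 10 KRT8 rose 2.001-fold, with a log2 fold change of 1.0004 ± 0.13 (SE) and an adjusted p of 1.33e-07 by edgeR's quasi-likelihood test. This value lay on the threshold of 1 and the call was lost in several alternatives. Scaling by library size alone gave 0.82, and leaving out single embryos gave 0.97 to 1.03. The 11 embryos without which the value came under 1 were d08_f_109, d08_f_124, d08_m_103, d08_m_111, d08_m_121, d10_f_315, d10_f_317, d10_f_336, d10_m_318, d10_m_321 and d10_m_333. From Day 10 to Day 12 KRT8 fell by 1.26 ± 0.13 on the log2 scale (adjusted p = 7.87e-10), and the Day 12 level did not pass the threshold against Day 8 (log2 fold change -0.26 ± 0.13, adjusted p = 0.0667).

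KRT7, a type II keratin of simple and glandular epithelia, ranged from 53.1 to 365 CPM on Day 8 (median 135.6), from 414 to 849 on Day 10 (median 672) and from 181 to 768 on Day 12 (median 316). The Day 8 and Day 10 embryos did not overlap, and the Day 12 embryos lay between and across both. The rise to Day 10 was 4.29-fold, a log2 fold change of 2.10 ± 0.27 (edgeR, adjusted p = 9.72e-08). The embryo d08_m_136 at 365 CPM was well above the second highest Day 8 embryo at 203 CPM. Against Day 10, the Day 12 level had a log2 fold change of -0.83 ± 0.26 (adjusted p = 0.00643), short of both thresholds. Without d12_f_271, the highest embryo of its day, it fell by 1.02 on the log2 scale and was called (adjusted p = 0.000700). Against Day 8, KRT7 was 2.42-fold higher on Day 12, with a log2 fold change of 1.27 ± 0.26 and an adjusted p of 6.44e-05, and 4 of 10 embryos lay above the whole Day 8 range.

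KRT80, a type II keratin of differentiating epithelia, had few reads. It ranged from 0 to 2.74 CPM on Day 8 (median 1.82), from 3.48 to 38.4 on Day 10 (median 6.32) and from 1.47 to 6.84 on Day 12 (median 4.19). On Day 8, 4 embryos had 3 reads or fewer, and d08_f_130 had 0, which allows up to 0.191 CPM by counting error alone. Every Day 10 embryo was above every Day 8 embryo, and the log2 fold change was 3.10 ± 0.56 (edgeR, adjusted p = 2.97e-05). On Day 10, d10_f_454 at 38.4 CPM and d10_m_453 at 26.7 CPM stood apart, since the next embryo was at 9.51 CPM. Against Day 10, the Day 12 level had a log2 fold change of -1.47 ± 0.53 (adjusted p = 0.0170), and against Day 8 one of 1.63 ± 0.55 (adjusted p = 0.00872). Neither passed an FDR of 0.001 in the quasi-likelihood test, whereas the robust GLM of edgeR, the method named by the study, called KRT80 higher on Day 12 than on Day 8, at 1.68 (adjusted p = 0.000516).

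Among the type I keratins, KRT18 was narrow on Day 8, at 8991 to 10670 CPM (median 10415). It ranged from 12415 to 19890 CPM on Day 10 (median 16491) and from 1850 to 8126 on Day 12 (median 2640). No 2 days overlapped, with Day 10 highest and Day 12 lowest. The Day 10 level was 1.65-fold that of Day 8, with a log2 fold change of 0.72 ± 0.19 (edgeR, adjusted p = 0.00151), and passed neither threshold although the embryos were fully separated. From Day 10 to Day 12 KRT18 fell by 2.21 ± 0.19 on the log2 scale (adjusted p = 2.40e-11), a 4.64-fold lower level. Against Day 8, the level on Day 12 was 2.81-fold lower, with a log2 fold change of -1.49 ± 0.19 (adjusted p = 3.17e-08).

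KRT19, the smallest type I keratin, ranged from 985 to 1327 CPM on Day 8 (median 1159), from 2261 to 4129 on Day 10 (median 3645) and from 2716 to 8138 on Day 12 (median 3812). The Day 8 embryos were separate from all others, whereas 6 of 10 Day 12 embryos lay within the Day 10 range. The rise to Day 10 was 2.98-fold, a log2 fold change of 1.57 ± 0.14 (edgeR, adjusted p = 1.41e-10). From Day 10 to Day 12 the log2 fold change was 0.32 ± 0.14 (adjusted p = 0.0501). From Day 8 to Day 12 KRT19 rose 3.70-fold, with a log2 fold change of 1.89 ± 0.14 (adjusted p = 5.79e-13). Unlike KRT18, KRT19 had no fall after Day 10 in any alternative, and its value against Day 10 stayed between 0.17 and 0.37 when single embryos were left out.

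KRT10, the type I keratin of differentiated epidermis, was low. It ranged from 1.66 to 5.37 CPM on Day 8 (median 3.93), from 0.939 to 3.29 on Day 10 (median 1.92) and from 2.26 to 11.9 on Day 12 (median 4.50). All 3 days overlapped, and Day 10 had the lowest median, in contrast to the other 5 genes. Against Day 8, the Day 10 level had a log2 fold change of -0.91 ± 0.27 (edgeR, adjusted p = 0.00456). From Day 10 to Day 12 KRT10 rose 2.51-fold, with a log2 fold change of 1.33 ± 0.27 (adjusted p = 8.89e-05), and 7 of 10 Day 12 embryos lay above the Day 10 range. The Day 12 level against Day 8 was 0.41 ± 0.26 on the log2 scale (adjusted p = 0.154). The embryo d12_f_245, with the lowest total of counts, had the highest value.

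**Figure D2:**
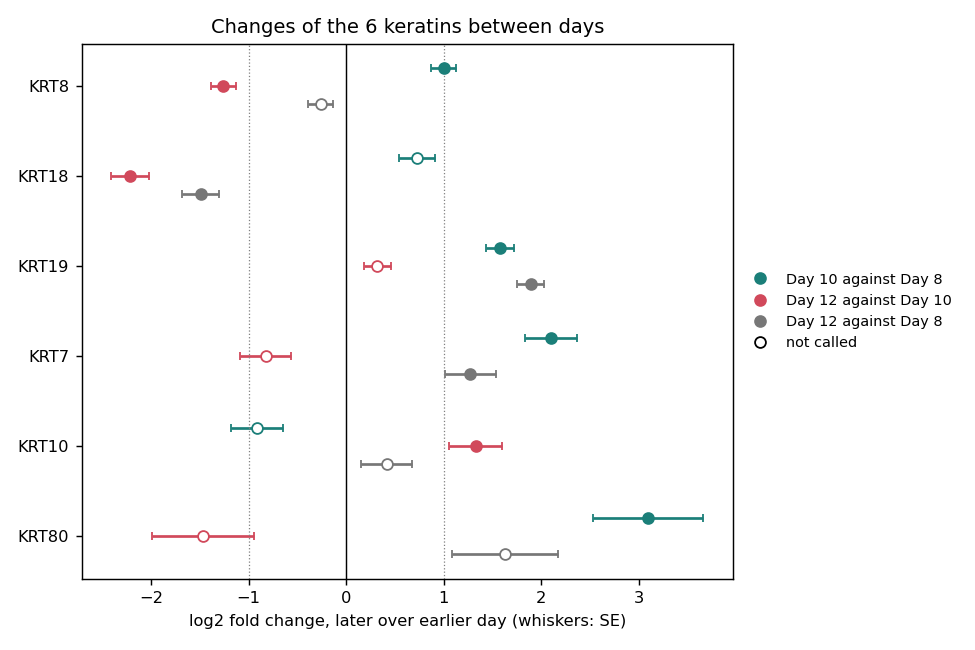
Log2 fold change of each keratin, later over earlier day, with its SE, in the 3 comparisons of days. Filled points passed both thresholds, open points did not, and dotted lines mark a log2 fold change of 1 in each direction. KRT18 has the lowest point, at -2.21 from Day 10 to Day 12, and KRT80 has the widest error.

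Fits of a single sex, with 5 embryos per day, lost some of these calls. KRT80 from Day 8 to Day 10 had a log2 fold change of 3.90 in female and 2.496 in male embryos, and KRT10 from Day 10 to Day 12 had one of 1.85 and 0.74, all not called. In male embryos KRT7 was not called against Day 8, with 1.85 on Day 10 and 0.81 on Day 12, and KRT8 was called from Day 8 to Day 10 in neither sex.

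The make-up of the keratin reads changed while the part of KRT8 stayed between 49.1% and 57.3% in all embryos. KRT8 made up 51.8% ± 1.44 of the reads of the 6 genes on Day 8, 54.1% ± 0.757 on Day 10 and 55.8% ± 2.10 on Day 12 (SD, n = 10). The KRT18 part was 42.6% ± 1.34, 36.7% ± 2.20 and 18.5% ± 3.08 on the 3 days. The KRT19 part was 4.96% ± 0.392, 7.74% ± 1.42 and 23.7% ± 1.79. On Day 12, reads of the 2 type I genes were thus split about evenly or in favour of KRT19, whereas on Day 8 most came from KRT18. KRT7 stayed a small part, at 0.630% ± 0.333, 1.44% ± 0.326 and 1.97% ± 0.432.

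**Figure D3:**
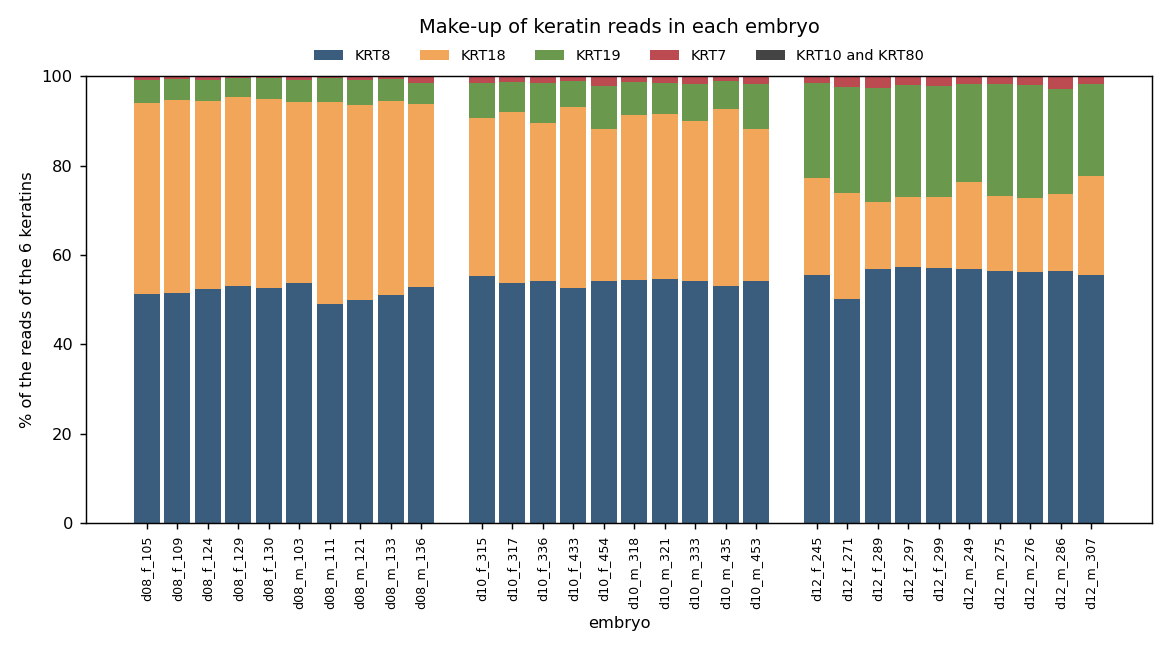
Share of each keratin gene in the reads of the 6 keratins, 1 bar per embryo, with the day, sex (f or m) and number of the embryo below it. The KRT8 share stays between 49.1% and 57.3% in all bars, and the KRT19 share is 4.27% to 5.57% on Day 8 and 20.6% to 25.5% on Day 12.

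The ratio of KRT8 to KRT18 reads rose on each later day. It was 1.22 ± 0.0704 on Day 8 (range 1.09 to 1.33), 1.48 ± 0.101 on Day 10 (range 1.30 to 1.59) and 3.10 ± 0.557 on Day 12 (range 2.10 to 3.78, SD, n = 10). Day 8 and Day 10 overlapped in a narrow band, and every Day 12 embryo was above every earlier one. The ratio was 1.21-fold higher on Day 10 than on Day 8, a log2 difference of 0.28 ± 0.0415 (SE). It was 2.07-fold higher on Day 12 than on Day 10, a log2 difference of 1.05 ± 0.0933. In a two-sided permutation test with 100000 resamples both differences, and that of 1.33 ± 0.0917 between Days 8 and 12, had a p of 2e-05, adjusted over the 3 pairs of days, which is the smallest value this test can give. This ratio does not depend on the scaling of the libraries, because both genes come from the same library.

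By sex, the ratio of KRT8 to KRT18 was 1.22 ± 0.0279 in female and 1.21 ± 0.101 in male embryos on Day 8, 1.48 ± 0.124 and 1.48 ± 0.0869 on Day 10, and 3.14 ± 0.752 and 3.07 ± 0.362 on Day 12 (SD, n = 5 each). The ratios were not tested between the sexes. On Day 12 the 4 embryos with the lowest ratio were, in order, d12_f_271, d12_m_307, d12_f_245 and d12_m_249. In the same order they were also the 4 with the most KRT18, at 8126, 5160, 5053 and 3405 CPM, against 2768 CPM or less in the other 6. KRT18 is the divisor of this ratio, so its level and the ratio are not independent. The order did not hold beyond these 4, since d12_f_289, at 2768 CPM, had the highest ratio of the day, 3.78.

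The summed level of the 3 type II genes over that of the 3 type I genes changed less than the ratio of KRT8 to KRT18. It was 1.10 ± 0.0688 on Day 8, 1.25 ± 0.0475 on Day 10 and 1.37 ± 0.109 on Day 12 (SD, n = 10). All pairs of days overlapped. The log2 difference was 0.18 ± 0.0338 from Day 8 to Day 10 (permutation test, adjusted p = 0.00012), 0.13 ± 0.0427 from Day 10 to Day 12 (adjusted p = 0.0062) and 0.32 ± 0.0484 from Day 8 to Day 12 (adjusted p = 0.00012). The ratio of KRT19 to KRT18, which was chosen after its values were seen and is given as a description, was 0.116 ± 0.00801 on Day 8, 0.213 ± 0.0508 on Day 10 and 1.32 ± 0.286 on Day 12. In that ratio no 2 days overlapped.

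**Figure D4:**
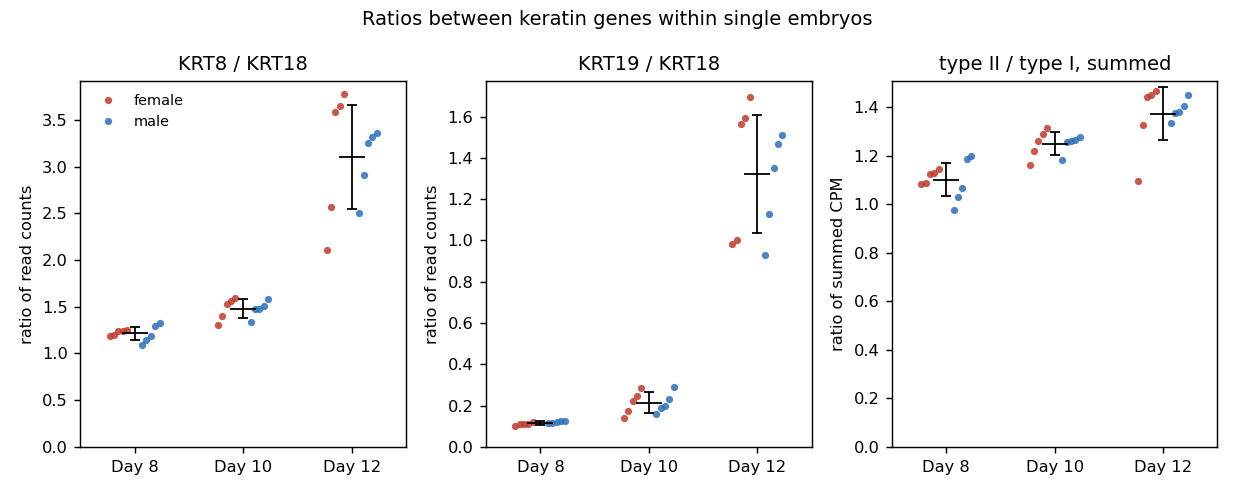
Ratios within single embryos of KRT8 to KRT18 reads, KRT19 to KRT18 reads, and the summed CPM of type II over type I keratins. Each point is 1 embryo, red for female and blue for male. The bar is the mean and the whiskers are the SD of 10 embryos. The first ratio lies between 2.10 and 3.78 on Day 12, above all earlier embryos, and the last changes only from a mean of 1.10 to 1.37.

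Within a day, KRT8 and KRT18 went up and down together from embryo to embryo. Across the 10 embryos of a day, Pearson's r of log2 CPM was 0.73 on Day 8 (permutation test, adjusted p = 0.0347), 0.88 on Day 10 (adjusted p = 0.00221) and 0.97 on Day 12 (adjusted p = 0.00018), adjusted over 18 relations. Spearman's rho was 0.67 (permutation test, adjusted p = 0.0890), 0.95 (adjusted p = 0.00117) and 0.94 (adjusted p = 0.00138). Without the 2 embryos farthest from the median of KRT8, r was 0.55, 0.87 and 0.96. Both levels of an embryo share its library and its scaling factor. The permutations treated embryos as independent, so with littermates the p-values of all these relations may be too small.

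KRT18 and KRT19, in contrast, were related on Day 12 but not detectably on Day 10. Their r was 0.67 on Day 8 (permutation test, adjusted p = 0.0664), 0.05 on Day 10 (adjusted p = 0.898) and 0.92 on Day 12 (adjusted p = 0.00132), with rho of 0.68, 0.14 and 0.90 (adjusted p = 0.0890, 0.747 and 0.00410). Without the 2 embryos farthest from the median of KRT18, r was 0.46, 0.08 and 0.82. The difference between days was not tested. KRT8 and KRT19 had an r of 0.96 on Day 12 (permutation test, adjusted p = 0.00018), with a rho of 0.99 (adjusted p = 0.00018) and 0.94 without the 2 farthest embryos. KRT7 and KRT19 had an r of 0.92 on Day 10 (permutation test, adjusted p = 0.00320), where rho was 0.75 (adjusted p = 0.0631) and r without the 2 farthest embryos was 0.64. On Day 12 the r of KRT7 with KRT8, KRT18 and KRT19 was 0.84, 0.77 and 0.89 (permutation test, adjusted p = 0.00702, 0.0172 and 0.00327). The rho of these pairs was 0.62, 0.67 and 0.58 (permutation test, adjusted p = 0.122, 0.0890 and 0.160). Without the 2 farthest embryos their r was 0.48, 0.36 and 0.54.

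On Day 10, 2 pairs of embryos set the ends of several keratin levels. The embryos d10_f_433 and d10_m_435 had the lowest KRT19, at 2261 and 2546 CPM, the lowest KRT7, at 416 and 414 CPM, and the lowest ratios of KRT8 to KRT18, at 1.30 and 1.34. The embryos d10_f_454 and d10_m_453 had the lowest KRT18, at 13818 and 12415 CPM, the highest KRT80 and the highest ratios, at 1.59 and 1.58. What the numbers of the embryos stand for is not given in the labels, and these pairs were noted after the values were seen.

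Over all 30 embryos, the genes whose log2 CPM was most like that of a keratin were sought among 10814 genes with a symbol and a mean of at least 1 CPM. The Pearson r is a description, since the days form separate groups. KRT18 was most like FAM151A and LAD1, each with an r of 0.97, and CLIC1, with 0.96. KRT8 was most like LPCAT1, with an r of 0.94, then C15H2orf54 and PAOX, each with 0.93. KRT19 was most like PEMT, with an r of 0.97, then GPX4 and PYCR3, each with 0.96. After the mean of each day was subtracted, KRT18 was the gene most like KRT8, and KRT8 the gene most like KRT18, with an r of 0.94. The next for KRT8 was PPP1R7 at 0.85, and the next for KRT18 was PHB2 at 0.88. KRT7, KRT10 and KRT80 had PPP1R18 (0.91), PURA (0.82) and SHB (0.82) as the most like genes over the 30 embryos.

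Female and male embryos did not pass the test for any keratin on any day. By edgeR's quasi-likelihood test at an FDR of 0.05, 0 of 6 members were called on Days 8, 10 and 12, and 0 of 6 had an unadjusted p under 0.05 on any day, against 4.59%, 2.36% and 22.7% of all genes on the 3 days. The robust GLM of edgeR and DESeq2 called 0 of 6 as well. Of all genes tested, the quasi-likelihood test called 0.658%, 0.223% and 0.123% on the 3 days. The robust GLM called 1.37%, 0.36% and 0.827%, and DESeq2 called 1.13%, 0.454% and 1.18%. KRT19 had the lowest p values, on Day 8 with a log2 fold change of female over male of -0.14 ± 0.07 (unadjusted p = 0.0763 and adjusted p = 0.999 from edgeR) and on Day 12 with one of 0.46 ± 0.26 (unadjusted p = 0.0994 and adjusted p = 0.283 from edgeR). On Day 12 all 6 keratins had a female mean above the male mean, by 0.34 to 0.67 on the log2 scale, and the 5 female embryos included d12_f_271, the highest of its day in KRT7, KRT8, KRT18 and KRT19. Without d12_f_271 the Day 12 value of KRT18 went from 0.45 to 0.03.

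For the sex difference between days, edgeR's quasi-likelihood test called 0% of 13103 genes in each of the 3 comparisons, and DESeq2 called 1, 27 and 345 genes in Day 10 against Day 8, Day 12 against Day 10 and Day 12 against Day 8. Neither tool called any of the 6 members. At an unadjusted p under 0.05, edgeR had 0, 1 and 1 of 6 members, against 0.763%, 18.9% and 21.8% of all genes, so these counts are near the share of all genes. KRT10 had a difference of the female-over-male value of 1.18 ± 0.51 on the log2 scale between Days 12 and 10 (unadjusted p = 0.0276 and adjusted p = 0.231 from edgeR), and KRT19 one of 0.57 ± 0.26 between Days 12 and 8 (unadjusted p = 0.0412 and adjusted p = 0.212 from edgeR).

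Beside the 6 members, 8 further keratin genes were among the 13103 genes counted, of 30 in the reference. KRT6A, a type II keratin of stratified and wounded epithelia, rose from Day 8 to Day 10, from 0.0636 ± 0.141 to 1.21 ± 0.601 CPM (SD, n = 10), with 9 of 10 Day 8 embryos at 3 reads or fewer. From Day 10 to Day 12 none of the 8 passed the test by edgeR. From Day 8 to Day 12 KRT6A and KRT15 rose and KRT32 fell. Called in the 3 comparisons were 14.1%, 23.3% and 32.5% of all genes. On Day 12 KRT6A was at 1.37 ± 2.48 CPM (median 0.403), with 8.24 CPM in d12_m_307 and 2.14 CPM or less in the other embryos. KRT15 was at 12.5 ± 23.5 CPM on Day 12 (median 3.03), with its highest values in d12_f_299 and d12_m_307. KRT32 fell from 17.5 ± 4.96 to 8.51 ± 4.22 CPM. The median log2 fold changes of the 8 genes were 0.84, -1.003 and -0.98 in the 3 comparisons, against 0.03, 0.04 and 0.09 for all genes.

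The desmosome and plakin genes, which anchor keratin filaments to cell junctions, had 5 called higher and 1 lower of 21 from Day 8 to Day 10, and 2 higher and 10 lower from Day 10 to Day 12. Of all genes, 9.88% were higher and 4.20% lower in the first step, and 14.9% higher and 8.39% lower in the second. The median log2 fold changes of the linkers were 0.56 and -0.66. The desmosomal cadherin DSG3 rose from 8.07 ± 3.28 to 43.2 ± 8.33 CPM and then fell to 0.522 ± 0.387. PKP1, a plakophilin that links keratins to the desmosome, was at 301 ± 72.2 CPM on Day 10 and fell to 7.38 ± 7.02 on Day 12. Not all linkers fell after Day 10, since ITGA6, an integrin of the hemidesmosome, rose from 104 ± 35.6 to 300 ± 159 CPM and the desmocollin DSC3 rose from 1.47 ± 0.660 to 5.02 ± 3.01. From Day 8 to Day 12, 6 of 21 were called higher and 12 lower, with a median of -1.07, against 22.0% and 10.4% of all genes.

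Of 16 genes of keratin turnover and binding, 3 were called higher and 1 lower from Day 8 to Day 10, 4 higher and 2 lower from Day 10 to Day 12, and 5 higher and 2 lower from Day 8 to Day 12, with medians of 0.39, 0.06 and 0.19. The called genes among all genes were 14.1%, 23.3% and 32.5% in these comparisons. TRIM29, a protein known to associate with keratin filaments, rose from 41.5 ± 24.3 to 416 ± 160 CPM by Day 10 and fell to 8.84 ± 4.78 by Day 12. SFN, the 14-3-3 protein of epithelia, rose from 666 ± 103.1 to 1437 ± 355 CPM and fell to 287 ± 160. HSPB1, a small heat shock protein that associates with keratin filaments, rose in both steps, from 7.22 ± 1.93 through 20.7 ± 4.07 to 247 ± 118 CPM.

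Of 26 epithelial regulators counted, 4 were called higher and 2 lower from Day 8 to Day 10, 6 higher and 4 lower from Day 10 to Day 12, and 7 higher and 2 lower from Day 8 to Day 12, with medians of 0.31, 0.12 and 0.51. Against 14.1%, 23.3% and 32.5% of all genes called, the 9 of 26 called from Day 8 to Day 12 are near the share of all genes. TP63, the transcription factor of stratified epithelia, rose from 0.624 ± 0.444 to 78.6 ± 34.9 CPM between Days 10 and 12. KLF5 fell in the same step, from 42.3 ± 8.50 to 13.5 ± 6.16 CPM. GRHL3 rose from 0.636 ± 0.242 to 14.9 ± 17.9 CPM by Day 10 and fell to 1.38 ± 0.843 by Day 12. The other intermediate filament genes had 1 of 13 called higher from Day 8 to Day 10, 6 higher and 1 lower from Day 10 to Day 12, and 8 higher from Day 8 to Day 12, with medians of 0.63, 1.74 and 1.98, against the same 14.1%, 23.3% and 32.5% of all genes called in either direction. NEFM, a neurofilament gene, rose from 0.519 ± 0.373 to 18.5 ± 12.2 CPM after Day 10, while the nuclear lamin LMNB1 fell from 575 ± 92.5 to 200 ± 64.3 CPM.

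The fall of KRT8 and KRT18 from Day 10 to Day 12 came with a lower summed level of the trophectoderm markers, medians of 2918 and 1628 CPM. That drop came from DAB2, which went from 2082 ± 262 to 696 ± 125 CPM, and without DAB2 the median of the sum was 854 CPM on Day 10 and 973 CPM on Day 12. Within that list of 8 genes 2 were called higher and 3 lower: GATA3 and TFAP2A rose and DAB2, CDX2 and TEAD4 fell. Of all genes, 14.9% were called higher and 8.39% lower from Day 10 to Day 12. Summed markers of the uterine epithelium, the hypoblast and the mesoderm were higher on Day 12 than on Day 10, with medians of 27.3 against 4.74, of 2900 against 1146 and of 1075 against 74.3 CPM. Much of the uterine sum came from WFDC2, at 3.85 ± 3.72 CPM on Day 10 and 21.3 ± 20.0 on Day 12. Much of the hypoblast sum came from APOA1, at 938 ± 212 and 2551 ± 1451 CPM. Called higher were 3 of the 6 uterine genes and 6 of the 8 hypoblast genes, and 0 were called lower. Besides WFDC2, the called uterine genes were HOXA10 and FOXJ1, at only 1.53 ± 1.77 and 0.816 ± 0.604 CPM on Day 12. PGR, PAX8, MUC16, EMX2, HOXA11 and SAL1, also listed as uterine, were not among the genes counted. The hypoblast gene GATA6, at 55.5 ± 4.87 and 44.5 ± 16.4 CPM, was not called. Nearly all of the mesoderm sum was HAND1, at 77.1 ± 52.6 and 1065 ± 381 CPM. Of the 6 mesoderm genes counted, 2 were called higher, HAND1 and BMP4, and 2 lower, T and EOMES. T went from 1.38 ± 1.004 to 0.0472 ± 0.0677 CPM and EOMES from 2.64 ± 0.984 to 0.0316 ± 0.0300. On Day 12, T had 3 reads or fewer in 9 embryos and EOMES in all 10. The sum therefore does not show a rise of the mesoderm genes as a set. The part of the uterine, hypoblast and mesoderm tissues in the keratin values was not tested.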

How the data were processed

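Whole single embryos were sequenced as stranded mRNA libraries with single-end reads. The authors trimmed the reads, including 3 bases at the 5′ end, and deposited raw read counts per gene for all embryos and for each day, after removing genes with low CPM. The build is Sscrofa11.1, and the aligner, the counting tool, its use of strand and the CPM limit are not given in the sources used here. All 13103 gene IDs matched the RefSeq gene table of the same build, which gave symbols and positions. No transcript lengths and no sequences were used.

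Counts were tested with edgeR 4.0.16 in R 4.3.3 (TMM scaling, robust quasi-likelihood F test, Benjamini-Hochberg adjustment). Days were compared in 1 fit of 3 groups over 30 embryos, called at a log2 fold change beyond 1 with an FDR under 0.001, and sexes within the table of each day (11405, 11675 and 12220 genes) at an FDR under 0.05. CPM in the sex comparisons follow each day's own scaling. The SE was derived from the F value. Log2 CPM used a prior count of 2. Ratios and correlations were tested by permutation (scipy 1.17.1). The procedure was tested on simulated counts. DESeq2 1.42.0, the robust GLM named by the study, other scalings and filters, single sexes and leaving out each embryo were the alternatives. The quasi-likelihood test was kept in place of the robust GLM. Members, gene lists and marker lists were chosen with earlier results of these data known. All 6 members were named, and of each list at most the 3 called genes with the largest change in each direction. A planned ratio per transcript length and a search of promoter motifs were not made. Intervals from counts cover counting error only.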

Additional observations from a re-analysis of the deposited data

Results flagged for a closer look

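For 8 keratin values in 9 groups of embryos (each day, and each sex within a day), 10 of the 72 checks had 1 embryo apart from the rest of its group by the gap to its nearest neighbour. Chance alone picks about 1 in 20 for independent groups of normally distributed values. The checks used CPM and ratios that were not on a log scale, so that rate may not hold here. These values are also correlated and the groups overlap, so the checks are not separate tests. The embryo d12_f_271 did so in 4 of them, with the highest KRT7 (768 CPM, next 457), the highest KRT18 (8126 CPM, next 5160), the highest KRT19 (8138 CPM, next 4963) and the lowest summed type II to type I ratio (1.10, next 1.33). On Day 10, d10_f_454 and d10_m_453 had the highest KRT80 of their sex, 38.4 CPM against 7.42 and 26.7 CPM against 9.51. The embryo d10_m_435 had the lowest KRT19 of the males, 2546 CPM against 3468, and the lowest type II to type I ratio of the males, 1.18 against 1.26. The embryo d08_m_136 had the highest KRT7 of its day, 365 CPM against 203. The embryo d12_f_245, the library with the fewest counts, had the highest KRT10 of its day, 11.9 CPM against 6.36.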

How the results depend on the processing

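No paired analysis was possible because each embryo has its own number and no number is shared between groups, although embryos of the same gilt were included. Low counts limited KRT10 and KRT80, and no alternative changed the direction or the call of the KRT8 to KRT18 ratio. When genes were tested for exceeding a log2 fold change of 1, the members called were 2, 1 and 1 in Day 10 against Day 8, Day 12 against Day 10 and Day 12 against Day 8, and the genes called 675, 1574 and 2403. With an FDR of 0.05 and no limit on the fold, the genes were 7353, 7821 and 9606, and the members in Day 12 against Day 10 were 5. Female embryos alone gave 2 members and 977 genes in Day 10 against Day 8. Male embryos alone gave 1 member and 1067 genes there, 2003 genes in Day 12 against Day 10, and for KRT10 in Day 12 against Day 8 a log2 fold change of -0.0480. Between the sexes, the robust GLM called 156, 42 and 101 genes on Days 8, 10 and 12, and DESeq2 about 1.3e+02 (1.72 times the edgeR count), 53 and 144, against 75, 26 and 15 by edgeR's quasi-likelihood test. For the sex difference between days DESeq2 called 1 gene in Day 10 against Day 8, 27 in Day 12 against Day 10 and 345 in Day 12 against Day 8, where edgeR called 0 (100, 2473 and 2863 at an unadjusted p under 0.05). Differences near 0 changed sign: KRT18 between sexes on Day 8 was 0.0067 with library size alone, and KRT80 on Day 10 was -0.0825 with the robust GLM. Leaving out 1 embryo gave 44 to 70 genes between sexes on Day 8 (under 50 without d08_f_109, d08_f_124, d08_f_129, d08_f_130 or d08_m_133) and 13 to 23 on Day 10 (17 or fewer without d10_f_315, d10_f_336, d10_m_318, d10_m_321, d10_m_333 or d10_m_435). It also gave log2 fold changes on Day 8 of -0.672 to 0.0266 for KRT7, -0.0367 to 0.0638 for KRT8 and -0.0386 to 0.0284 for KRT18, and on Day 10 of -0.0322 to 0.217 for KRT7, -0.0407 to 0.0997 for KRT8, -0.0645 to 0.0944 for KRT18, -0.0490 to 0.167 for KRT19 and -0.861 to 1.03 for KRT80. KRT80 in Day 12 against Day 8 was called by the robust GLM, at 1.68. The cause was not tested.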

Other observations

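Some of the further keratin genes varied widely between single embryos of a day. These values were looked at after the data were seen and are given as a description. KRT12, a type I keratin known from the cornea, had 3 reads or fewer in 11 of 30 embryos, 3 on Day 8, 3 on Day 10 and 5 on Day 12. In the other embryos it lay between 16.3 and 30.3 CPM on Day 8, between 32.6 and 75.0 on Day 10, and between 6.01 and 92.5 on Day 12. The 3 Day 8 embryos without KRT12 reads were all female. On Days 10 and 12, embryos with 3 reads or fewer were found in both sexes. KRT79, a type II keratin of skin appendages, was at 30.3 CPM in d10_f_454 and 22.5 CPM in d10_f_336, and at 0.294 CPM or less in the other Day 10 embryos. KRT15, a type I keratin of basal cells, reached 74.2 CPM in d12_f_299 and 30.6 CPM in d12_m_307, and 6.70 CPM or less in the other Day 12 embryos.

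KRT31 and KRT33A, hair keratin genes on chromosome 12 with KRT34 between them, had the same read count in 26 of 30 embryos, and KRT31 and KRT34 in 11 of 30. Their levels, of at most 1.55 CPM, are therefore uncertain as to which of the 3 genes the reads came from.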
